A study of Mus musculus with 7 samples.

Results

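Described here are 8 genes of iron handling, Trf, Fth1, Ftl1, Tfrc, Slc11a2, Slc40a1, Ireb2 and Aco1, which were taken by symbol from the 27998 genes of a single-cell count table of mouse oligodendrocyte lineage cells (OLCs). All 8 symbols were found. Iron enters a cell when transferrin, the carrier encoded by Trf, binds the transferrin receptor (Tfrc) and is taken up, after which the transporter encoded by Slc11a2 passes the metal out of the endosome. Iron that is not used is stored in ferritin, a shell of heavy (Fth1) and light (Ftl1) subunits, and iron leaves the cell through ferroportin (Slc40a1). Oligodendrocytes are among the most iron-rich cells of the brain and a main source of transferrin mRNA there, and iron serves the enzymes with which they make lipid and myelin.

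The table came from droplet-based 3′ sequencing of sorted cells of adult mice at P90 (11 to 14 weeks), with each of 3 populations in 1 library. Control dOLCs were tdTom+ cells of dorsal origin from Emx1-Cre:Sox10-GFP-tdTom mice, control vOLCs were GFP+ cells of ventral origin from the same mice, and ectopic vOLCs were GFP+ cells from Emx1-Cre:Sox10-GFP-tdTom:Sox10-DTA mice, in which OLCs of dorsal origin were ablated by diphtheria toxin fragment A. All mice thus carried the Emx1-Cre and the dual reporter, so that dorsal origin means a history of Emx1-Cre expression and OLC identity means activity of Sox10 regulatory sequence. The mice, of both sexes, are not told apart in the files, which leaves no replicates: differences between libraries were not tested, and intervals (95%) cover counting error only. After the authors' quality control, 5804 control dOLCs, 925 control vOLCs and 2562 ectopic vOLCs remained of 10081 barcodes, with a median of 3489.5, 5022 and 5318.5 unique molecular identifiers (UMIs, counted molecules) per cell. They fall into the authors' 11 clusters, from OPCs (oligodendrocyte progenitor cells) over COP/NFOL/MFOLa (committed and newly formed) and MFOLb (myelin-forming) to the mature MOL1, MOL2a, MOL2b and MOL5/6a to MOL5/6d. Because the clusters were made from the expression of these cells, differences between clusters are a description.

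The OPC cluster carried its markers: the summed level of 6 OPC markers was 8885, 11208 and 8933 counts per 1000000 UMIs (CPM) in the OPCs of the libraries, in the order control dOLCs, control vOLCs and ectopic vOLCs that is kept below where 3 values are given without names, and at most 147 CPM in any library's MOL5/6 clusters. The mature names were less sharp, since the summed MOL5/6 markers were at 31349, 35945 and 31949 CPM in MOL5/6c and at 32323, 47546 and 42550 in MOL1. Microglia, which also hold much iron, were nearly absent. Their 6 markers summed to between 0.770 and 1.65 CPM per library, with Tmem119 at 0 in all 3. Markers of choroid plexus, another source of transferrin, summed to at most 0.173 CPM with Ttr at 0, and 5 erythrocyte markers summed to between 14.2 and 20.8 CPM. RNA of mature-cell genes was not absent from OPC barcodes, and its values stand beside the OPC results. Some cells shared a barcode between libraries (78 of 9291).

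Translation of several of these mRNAs depends on the iron-responsive element (IRE), a short hairpin that is bound by the proteins encoded by Aco1 (IRP1) and Ireb2 (IRP2) when iron is low. In a 5′ UTR, binding blocks translation, and in the 3′ UTR of Tfrc it protects the mRNA from decay, so that the protein of some of the genes below can change without their mRNA. The hairpins are shown because this known control runs through them; a match to the letters is a description, and binding was not measured. In each, capitals mark the unpaired C of the stem and the 6-base loop CAGTGN. The motif was searched on the mRNA strand as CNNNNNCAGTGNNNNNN, with the 5 bases on either side of the loop required to pair, in UTRs of GENCODE M21 on GRCm38 (the same assembly as mm10).
Fth1 5′ UTR (chr19:9982733-9982759, + strand): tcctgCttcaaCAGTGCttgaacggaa
Ftl1 5′ UTR (chr7:45459780-45459806, - strand): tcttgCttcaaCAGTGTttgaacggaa
Slc40a1 5′ UTR (chr1:45925466-45925492, - strand): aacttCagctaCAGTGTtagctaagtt
Tfrc 3′ UTR (chr16:32631220-32631246, + strand): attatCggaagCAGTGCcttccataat
Tfrc 3′ UTR (chr16:32631599-32631625, + strand): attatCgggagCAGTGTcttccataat
Tfrc 3′ UTR (chr16:32631664-32631690, + strand): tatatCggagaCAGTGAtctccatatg
Tfrc 3′ UTR (chr16:32631711-32631737, + strand): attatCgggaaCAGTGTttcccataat
The stems and loops of the ferritin subunits were nearly alike, while the 4 Tfrc elements differed among themselves in the stem. This motif was present in the 5′ UTR of 31 of 20580 genes (0.151%) and in the 3′ UTR of 129 of 20962 (0.615%). No match in the UTRs of the other 4 genes says only that these letters were not found there.

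The amounts counted differed widely. Over all kept cells there were 674392 UMIs of Fth1, 339598 of Trf and 53791 of Ftl1, against 1374 of Tfrc, 1128 of Slc11a2, 791 of Aco1, 626 of Ireb2 and 14 of Slc40a1. UMIs carry no correction for how well a transcript is captured, and the genes are therefore compared with themselves across clusters and libraries, not with each other.

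Trf rose from OPCs over COP/NFOL/MFOLa to MFOLb and was highest in MOL2a, but not all mature clusters lay above MFOLb. In OPCs it was at 1225 CPM in control dOLCs, 717 in control vOLCs and 430 among ectopic vOLCs, in COP/NFOL/MFOLa at 3015, 4039 and 3863, and in MFOLb at 7406, 7275 and 6655. In MOL2a it reached 14830, 17098 and 19221 CPM. All 3 MOL2a values lay above those of every other cluster and library. Among the remaining mature clusters, MOL5/6a (9814 to 12120 CPM over the 3 libraries), MOL2b (9741 to 10069), MOL1 (8460 to 11584) and MOL5/6b (8646 to 9296) overlapped with their neighbours in the order. MOL5/6d (5778 to 6456) and MOL5/6c (4938 to 5142) lay below these and also below MFOLb, without overlap with it or with each other.

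Fth1, whose product oxidizes iron for storage, had another order. It was highest in MOL2b, at 30416 CPM in control dOLCs, 33558 in control vOLCs (6 cells only) and 29529 among ectopic vOLCs. MOL5/6d followed at 22236, 22715 and 21537 CPM, and MOL5/6c at 19289, 18729 and 18467. These 3 clusters did not overlap with each other over the libraries, though the upper end of MOL2a reached into MOL5/6c. MOL1, MOL2a, MFOLb, MOL5/6a and MOL5/6b overlapped in a chain between 10330 and 18864 CPM, and COP/NFOL/MFOLa (5342 to 6610) and OPCs (3212 to 5722) were lowest beside cycling OPCs (31 cells in all 3 libraries).

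Ftl1, the light subunit, varied much less. Its mean over the libraries ran from 764 CPM in cycling OPCs and 981 in OPCs to 1551 in MOL5/6d, and the ranges of all neighbours in the order overlapped. In MOL5/6d it was at 1532, 1512 and 1610 CPM.

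**Figure D1:**
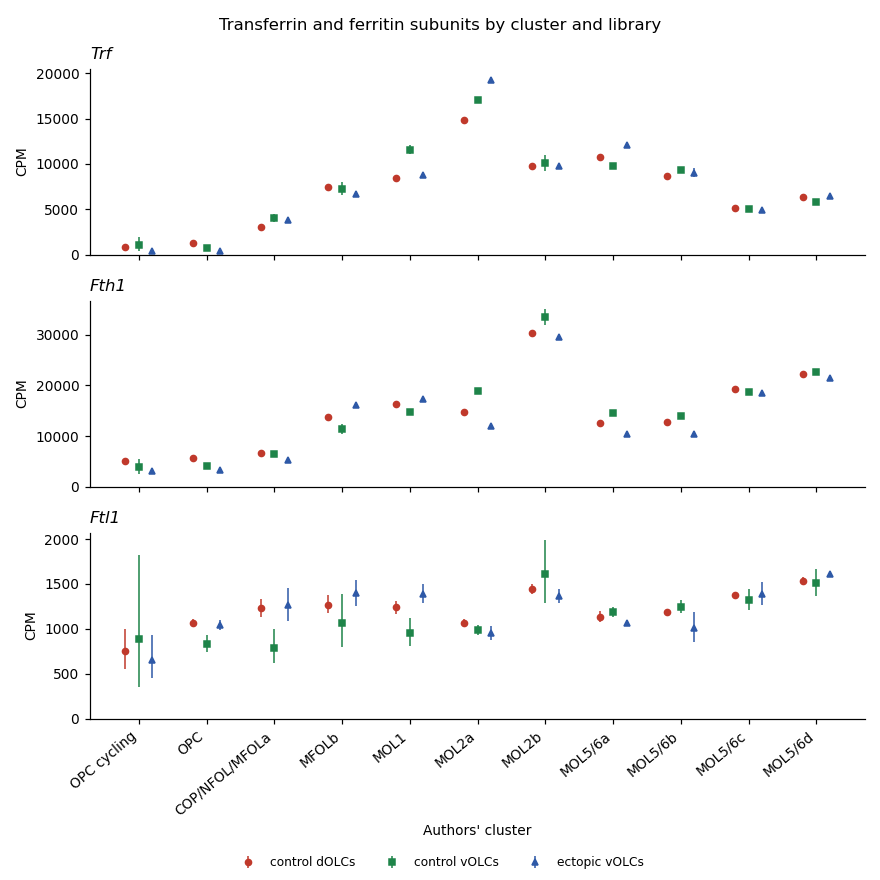
Level of Trf, Fth1 and Ftl1 in counts per 1000000 UMIs (CPM, linear axes from 0) in each of the 11 clusters, for control dOLCs (circles), control vOLCs (squares) and ectopic vOLCs (triangles). Bars are 95% Poisson intervals, which cover counting error only. Trf peaks in MOL2a and Fth1 in MOL2b in all 3 libraries, while Ftl1 varies less.

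Trf and Fth1 therefore split the clusters within MOL5/6 and within MOL2 in opposite ways, in each library. This did not hold over all mature clusters, since MOL2b had more of both than MOL5/6b in each library. Of the MOL5/6 cells, a and b had more Trf and less Fth1 than c and d. The log2 ratio of Trf to Fth1 UMIs within a cluster, which does not depend on library size, was -0.22 in control dOLCs, -0.58 in control vOLCs and 0.23 among ectopic vOLCs for MOL5/6a. For MOL5/6b it was -0.56, -0.59 and -0.19. It was -1.91, -1.88 and -1.90 for MOL5/6c, and -1.82, -1.98 and -1.74 for MOL5/6d, so that the pairs did not overlap in any library. MOL2 was split likewise, with 0.015, -0.14 and 0.68 for MOL2a and -1.64, -1.74 and -1.59 for MOL2b. Depth and mitochondrial share moved with this split: cells of MOL5/6b had a median of 2844, 3971 and 3059 UMIs and 8.67%, 8.23% and 10.5% mitochondrial counts, against 6036, 7576 and 7160 UMIs and 4.06%, 4.21% and 4.52% in MOL5/6d. MOL5/6a and MOL5/6c were closer in depth, with 3910, 5584 and 4391 UMIs in a and 4273.5, 7099 and 4940 in c. The part of depth and mitochondrial share in the split was not tested.

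**Figure D2:**
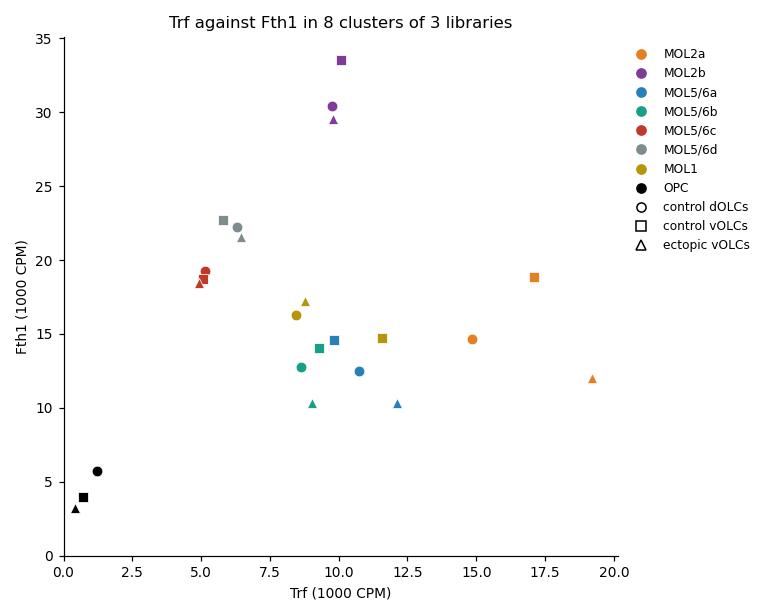
Trf (x axis) against Fth1 (y axis), both in units of 1000 CPM, with 1 point per cluster (colour) and library (circle, control dOLCs; square, control vOLCs; triangle, ectopic vOLCs) for 8 of the 11 clusters. MOL2a lies to the right, MOL2b at the top, and MOL5/6c and d to the upper left of MOL5/6a and b in each library.

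The share of Fth1 among all ferritin UMIs was similar between the libraries in MOL5/6 as a whole, but not in every mature cluster. Summed over MOL5/6 it was 92.7% (92.6 to 92.8) in control dOLCs, 92.6% (92.4 to 92.8) in control vOLCs and 92.5% (92.3 to 92.6) among ectopic vOLCs. It was highest in MOL2b, at 95.5%, 95.4% and 95.6%. In MOL2a it was 93.2% (93.0 to 93.5) in control dOLCs, between 94.8% and 95.3% by its interval in control vOLCs and 92.7% (92.1 to 93.2) among ectopic vOLCs, that is 13.8, 19.2 and 12.6 Fth1 UMIs per Ftl1 UMI, with control vOLCs above the intervals of the other libraries. MOL5/6a had 91.7% (91.3 to 92.1), 92.5% (92.1 to 92.9) and 90.6% (90.4 to 90.9), lowest in ectopic vOLCs. In OPCs it was lower, at 84.3% (83.7 to 84.8), 82.7% (80.9 to 84.4) and 75.5% (74.3 to 76.7), and ectopic OPCs lay below the intervals of both controls, with 5.37, 4.78 and 3.08 Fth1 UMIs per Ftl1 UMI.

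Tfrc, the transferrin receptor, was higher in mature cells than in OPCs. In MOL5/6 it was at 35.9 CPM in control dOLCs, 35.3 in control vOLCs and 29.1 among ectopic vOLCs, and in OPCs at 12.6, 10.1 and 8.32 CPM, from 33, 4 and 10 UMIs. By its mean, MOL2a was its highest cluster (60.0, 38.3 and 53.8 CPM), as for Trf, but its range overlapped with those of MOL5/6b and MOL5/6c, among others. Slc11a2, the endosomal transporter, did not follow the lineage. It was at 25.5, 30.1 and 26.7 CPM in MOL5/6 and at 27.0, 40.5 and 27.4 in OPCs, and its ranges overlapped for all neighbours in the order but MOL5/6a and MOL5/6d.

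Slc40a1, the exporter, was hardly counted. Of its 14 UMIs, 12 were in OPCs, namely 6, 4 and 2 by library, which is 2.29, 10.1 and 1.66 CPM. The other 2 were in ectopic MOL5/6a. Of the 12 OPCs with a UMI, 2 also held a UMI of a microglial or endothelial marker. In the MOL5/6 cells of control dOLCs and control vOLCs no UMI was found, which allows a level of up to 0.202 and 1.03 CPM (3 counts).

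The genes of the IRE-binding proteins were highest in OPCs. Aco1 was at 38.1, 35.5 and 39.1 CPM in OPCs and at 17.3, 16.4 and 13.6 in MOL5/6, so that OPCs lay above MOL5/6 in all 3 libraries. Ireb2 was at 27.8, 30.4 and 18.3 CPM in OPCs and at 17.3, 18.2 and 7.76 in MOL5/6. By cluster, the Aco1 range in OPCs overlapped with those in COP/NFOL/MFOLa, which rests on 27 UMIs, and in cycling OPCs, which rests on 2. The Ireb2 range in OPCs overlapped with those of several later clusters, of which MOL5/6b had the highest mean.

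**Figure D3:**
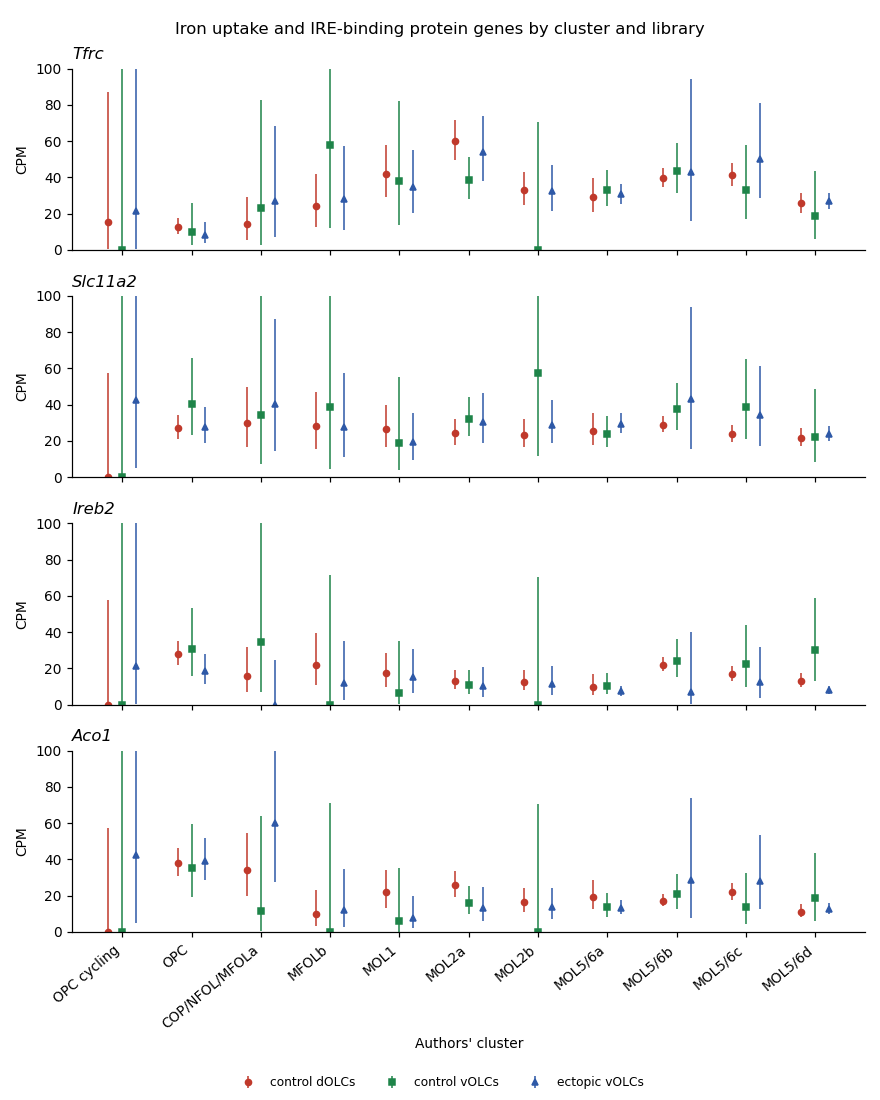
Level of Tfrc, Slc11a2, Ireb2 and Aco1 in CPM (linear axes from 0 to 100, beyond which some intervals run) by cluster for control dOLCs (circles), control vOLCs (squares) and ectopic vOLCs (triangles), with 95% Poisson intervals. Tfrc is lower in OPCs than in MOL5/6, Aco1 is higher in OPCs, and clusters of few cells have wide intervals.

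RNA of mature-cell genes in OPC barcodes bears on these levels, and its source was not tested. For 11 genes of myelin and mature oligodendrocytes, such as Mag, Mog and Mal, the CPM in OPCs was set against that in MOL5/6 of the same library. In control dOLCs these genes stood at 16.1% to 35.0% of their MOL5/6 level (median 22.4%), in control vOLCs at 6.12% to 20.2% (median 10.6%) and in ectopic vOLCs at 5.35% to 16.1% (median 8.47%). Trf stood at 16.8% (16.2 to 17.4), 8.25% (7.31 to 9.28) and 4.98% (4.56 to 5.43). In control dOLCs 1 of the 11 genes lay below Trf, in control vOLCs 4, and in ectopic vOLCs 0. Trf in OPC barcodes thus stood within the range of these genes or below it, and the part of mature-cell RNA in its counts was not tested. Trf was found in 85.7%, 93.4% and 78.5% of OPCs, and in 52.9%, 57.0% and 34.5% after thinning of each cell to 1000 UMIs, against 99.6% or more of thinned MOL5/6 cells.

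The other members stood higher than Trf in OPCs. Fth1 was at 34.1%, 25.4% and 18.9% of its MOL5/6 level, above 10 of the 11 genes in control dOLCs and above all 11 in control vOLCs and ectopic vOLCs. Ftl1 was at 81.0%, 66.6% and 75.2%. Tfrc was at 35.0%, 28.7% and 28.6%, with wide intervals. Slc11a2 (106%, 134% and 103%), Ireb2 (161%, 167% and 236%) and Aco1 (220%, 216% and 287%) were at or above their MOL5/6 level.

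**Figure D4:**
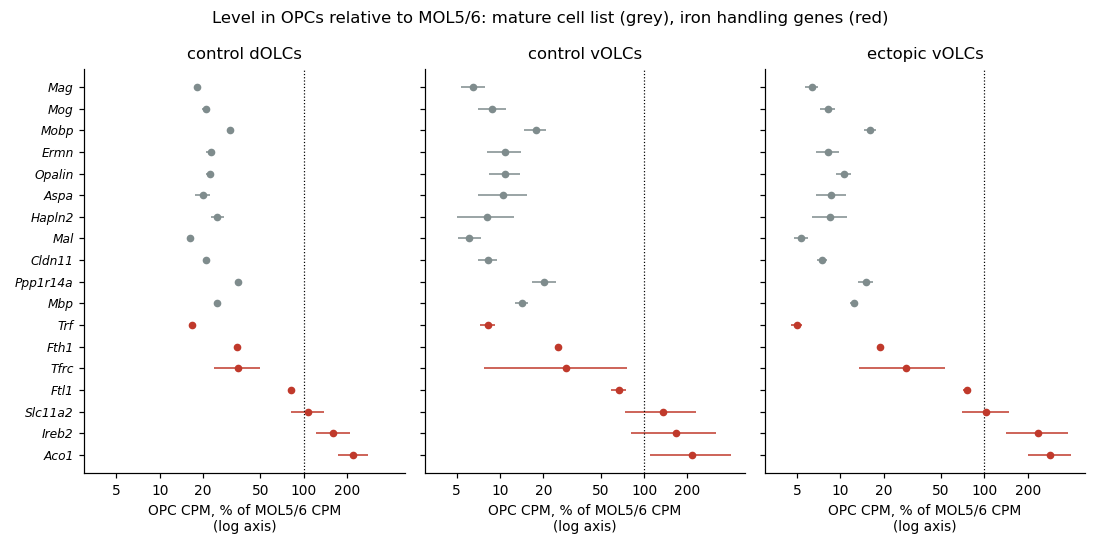
CPM in OPCs as a percent of the CPM in MOL5/6 of the same library (x axis, log scale) for 11 genes of mature cells (grey) and 7 iron handling genes (red), with 95% counting intervals; the dotted line is 100%. Trf lies in the lower part of the grey points in the controls and below them in ectopic vOLCs, Fth1 at or beyond their upper end, and Slc11a2, Ireb2 and Aco1 at or above 100%.

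Levels in the ectopic library were then set against both controls. A gene was called where its CPM differed by 1.5-fold or more, among genes that had 50 or more UMIs over the pair of libraries and were found in 10% or more of either library's cells. The 2 comparisons with ectopic vOLCs share that library, and those with control dOLCs and control vOLCs share these. In MOL5/6, 5 of the 8 members passed the filter (Trf, Fth1, Ftl1, Tfrc and Slc11a2), and 0 of 5 were past 1.5-fold between ectopic vOLCs and control dOLCs, where 12.6% of 5218 genes were. It was also 0 of 5 between ectopic vOLCs and control vOLCs (background 13.9% of 5496 genes) and between control vOLCs and control dOLCs (3.29% of 5195, with 2.56% higher and 0.731% lower).

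In detail, Trf in MOL5/6 was at 7312 CPM in control dOLCs, 8689 in control vOLCs and 8633 among ectopic vOLCs. On the log2 scale, ectopic vOLCs stood 0.24 (0.23 to 0.25) above control dOLCs and differed by -0.0093 (-0.029 to 0.011) from control vOLCs. These are sums over MOL5/6, and they did not hold in every subcluster. With the 4 subclusters weighted alike the ratio to control dOLCs was 0.078, and within them it was 0.18 in MOL5/6a, 0.062 in b, -0.059 in c and 0.033 in d, with intervals that hold 0 in b and c. Scaled by TMM factors the summed ratio was 0.41. Relative to control vOLCs, Trf of ectopic vOLCs was higher in a (0.30, 0.28 to 0.33) and d (0.16, 0.087 to 0.23), while the intervals in b (-0.042) and c (-0.040) held 0, and weighted alike the ratio was 0.12. Between the controls the summed ratio was 0.25 (0.23 to 0.27), but control vOLCs were lower in a (-0.13, -0.16 to -0.094) and d (-0.13, -0.20 to -0.053), higher in b (0.10, 0.072 to 0.14) and at -0.018 (-0.088 to 0.051) in c, and weighted alike the ratio was -0.041.

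Fth1 in MOL5/6 was at 16764, 15677 and 16964 CPM, with a log2 ratio of 0.017 (0.0084 to 0.026) to control dOLCs and 0.11 (0.099 to 0.13) to control vOLCs. Within subclusters the direction was the opposite. Against control dOLCs Fth1 was lower in ectopic MOL5/6a (-0.27), b (-0.30), c (-0.063) and d (-0.046), each with an interval below 0, and over the 11 clusters the interval lay below 0 in 9 and above it in 2 (MFOLb and MOL1). The make-up of MOL5/6 differed: control dOLCs had 333, 1947, 928 and 569 cells in a, b, c and d, control vOLCs 237, 236, 53 and 35, and ectopic vOLCs 900, 42, 63 and 837. With subclusters weighted alike, the Fth1 ratio was -0.14 to control dOLCs and -0.21 to control vOLCs. Other scalings moved the median log2 ratio of all genes in MOL5/6 up by 0.17 (TMM) and 0.19 (median of ratios) against control dOLCs, which is more than the Fth1 ratios within c and d.

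Ftl1 in MOL5/6 was at 1317, 1252 and 1385 CPM, with a log2 ratio of 0.073 (0.042 to 0.10) to control dOLCs and 0.15 (0.094 to 0.20) to control vOLCs. It too changed direction with the subclusters: weighted alike the ratios were -0.044 and -0.053. In ectopic MOL5/6a Ftl1 was lower than in either control (-0.091, -0.18 to -0.0056, and -0.15, -0.23 to -0.068), and in b it was at -0.24 (-0.49 to 5.4e-06) and -0.31 (-0.57 to -0.053). In d it was at 0.072 (0.024 to 0.12) and 0.091 (-0.053 to 0.24). Summed over MOL5/6, Tfrc was lower in ectopic vOLCs, with -0.30 (-0.51 to -0.097) and -0.28 (-0.60 to 0.060), but with subclusters weighted alike the ratios were 0.15 and 0.22. For Slc11a2 the ratios were 0.066 (-0.16 to 0.29) and -0.18 (-0.53 to 0.19). Aco1, which did not pass the filter, had -0.35 (-0.65 to -0.047) and -0.27 (-0.75 to 0.23), and with subclusters weighted alike 0.25 to control dOLCs.

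Ireb2 had the lowest ratios of the members in MOL5/6, though it was found in too few cells for the filter. It had 257, 53 and 82 UMIs by library, and after thinning it was found in 1.93%, 2.32% and 0.597% of cells. On the log2 scale, the ectopic library differed by -1.16 (-1.54 to -0.80) from control dOLCs and by -1.23 (-1.74 to -0.70) from control vOLCs, while the ratio between the controls was 0.068 (-0.39 to 0.50). Ectopic cells were lower than control dOLCs and control vOLCs in each of the 4 subclusters, with an interval below 0 only in MOL5/6d (-0.73, -1.35 to -0.11, and -1.94, -3.04 to -0.65). To control dOLCs, the ratio was -0.41 in a and -0.42 in c, both short of 1.5-fold, and -1.61 in b, from 1 ectopic UMI. To control vOLCs it was -0.52 in a, -0.83 in c and -1.74 in b. MOL5/6b, where Ireb2 of control dOLCs was highest (22.0 CPM), held 1947 control dOLCs and 42 ectopic vOLCs. The part of this make-up in the sum was not tested. Without the limit on the share of cells, 19.9% of 10211 genes with at least 50 UMIs were lower by 1.5-fold or more in ectopic vOLCs relative to control dOLCs and 1.8% higher, and 16.4% of 9131 were lower and 2.81% higher relative to control vOLCs, so that low ratios were common among sparse genes.

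**Figure D5:**
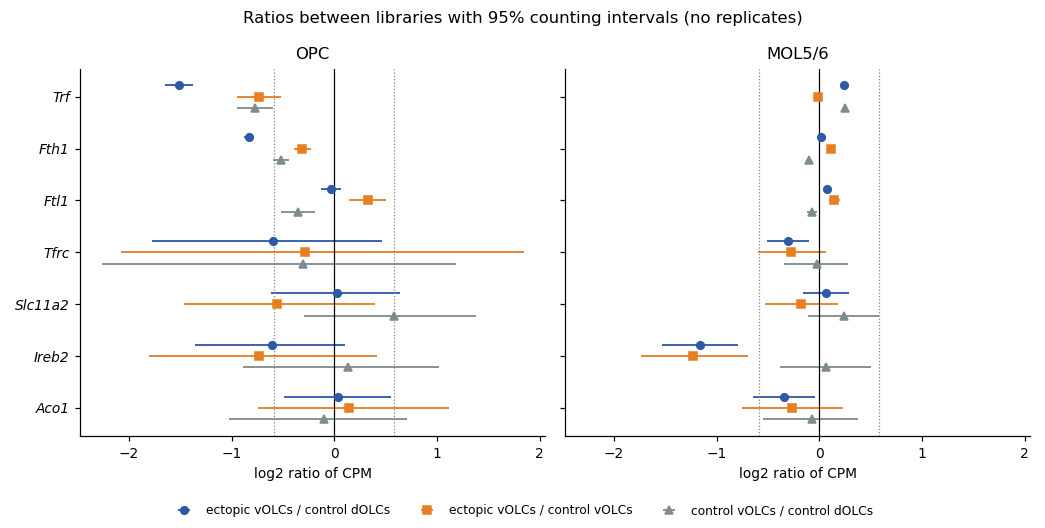
Log2 ratios of CPM between libraries (x axis) for 7 members in OPCs (left) and MOL5/6 (right), with 95% counting intervals; blue circles are ectopic vOLCs over control dOLCs, orange squares ectopic vOLCs over control vOLCs and grey triangles control vOLCs over control dOLCs. Dotted lines mark 1.5-fold. In MOL5/6 only the Ireb2 ratios with ectopic vOLCs are past them, and in OPCs Trf is past them in all 3 comparisons.

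Among OPC barcodes, counts of Trf and Fth1 were lower in ectopic vOLCs. Of the 4 members that passed the filter against control dOLCs (Trf, Fth1, Ftl1 and Aco1), 2 were past 1.5-fold, both lower, where 11.1% of 6110 genes were called and 5.79% were lower. Against control vOLCs 1 of 4 was called, Trf, where 27.8% of 5721 genes were and 9.77% were lower. Between control vOLCs and control dOLCs 1 of 5 was called, again Trf, where 22.9% of 5863 genes were and 12.1% were lower. Slc11a2 was just short of 1.5-fold there, with a log2 ratio of 0.58 (-0.30 to 1.38) from 16 and 71 UMIs.

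The log2 ratio of Trf in OPCs was -1.51 (-1.65 to -1.38) to control dOLCs, -0.74 (-0.95 to -0.52) to control vOLCs and -0.77 (-0.95 to -0.60) between the controls. Relative to control dOLCs, the genes of the mature list were lower as well, in control vOLCs as in ectopic vOLCs. Between ectopic vOLCs and control vOLCs they did not move with Trf. There, Mag was at 0.12 (-0.19 to 0.45) and Mbp at -0.030 (-0.21 to 0.15), and the interval of each gene of the list held 0. The whole mature list, of 12 genes, made up 1.16%, 0.507% and 0.493% of the OPC UMIs by library, and more than 1% of the UMIs in 222 of 853, 1 of 121 and 1 of 330 OPCs. Without these barcodes, the Trf ratio of ectopic vOLCs was -0.72 to control dOLCs and -0.80 to control vOLCs, and that between the controls was 0.077, in the other direction. The percent of the MOL5/6 level was then 9.26%, 8.23% and 4.77%.

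Fth1 in OPCs was at 5722 CPM in control dOLCs, 3988 in control vOLCs and 3212 among ectopic vOLCs. The log2 ratio was -0.83 (-0.88 to -0.78) to control dOLCs and -0.31 (-0.40 to -0.23) to control vOLCs, and -0.52 (-0.60 to -0.45) between the controls. Without the barcodes over 1% it was -0.65 to control dOLCs and -0.32 to control vOLCs. Fth1 then stood at 29.8%, 25.4% and 18.8% of its MOL5/6 level, so that the controls lay closer together than with all barcodes. Ftl1 in OPCs was at 1066, 833 and 1042 CPM, so that ectopic vOLCs were close to control dOLCs (-0.033, -0.13 to 0.063) and above control vOLCs (0.32, 0.15 to 0.50). The light subunit did not follow the heavy one here, as the Fth1 shares above also show, and this was not particular to OPCs. In MOL2a, Fth1 of ectopic vOLCs relative to control vOLCs was at -0.65 (-0.69 to -0.62) with Ftl1 at -0.048 (-0.19 to 0.092), and in MOL5/6a Fth1 was at -0.50 (-0.53 to -0.48) with Ftl1 at -0.15. For Tfrc, Slc11a2, Ireb2 and Aco1 in OPCs, the intervals of all 3 ratios held 0, at 4 to 100 UMIs per library.

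Other genes of iron transport, heme and iron-sulfur clusters were described from a list of 77, of which 73 were in the table by symbol. In MOL5/6, 29 passed the filter against control dOLCs, and 0 were 1.5-fold or more higher and 2 lower in ectopic vOLCs (all genes: 1.13% higher and 11.5% lower). It was again 0 higher and 2 lower of 29 against control vOLCs (1.46% and 12.4%). These were Cdc42bpa, a kinase, with a log2 ratio of -0.88 (-0.98 to -0.78) to control dOLCs and -0.68 (-0.83 to -0.53) to control vOLCs, and Picalm, a clathrin adaptor of endocytosis, with -0.83 (-0.95 to -0.71) and -0.66 (-0.84 to -0.48). In OPCs, 3 of 33 were higher and 3 lower than in control dOLCs (5.34% and 5.79% of all genes), and 8 of 32 higher and 4 lower than in control vOLCs (18% and 9.77%). All 3 that were higher than in control dOLCs, and 3 of the 8 relative to control vOLCs, reached 10% of cells in the ectopic library alone, so that they had to be higher there to pass, and these counts of higher genes support nothing. Of the lower ones, none passed that way. Past 1.5-fold against both, with both intervals on 1 side of 0, were Blvrb, a biliverdin reductase of heme breakdown, which was higher (0.92, 0.32 to 1.52, and 1.33, 0.10 to 2.85), and Fbxl5, the iron-sensing ubiquitin ligase subunit that marks the product of Ireb2 for decay, which was lower (-0.72, -1.17 to -0.30, and -0.70, -1.36 to -0.025). Blvrb passed the filter only through the ectopic library (a UMI in 6.21%, 4.96% and 13.3% of OPCs), and its ratios are given as a description. They rest on 53, 6 and 46 UMIs in control dOLCs, control vOLCs and ectopic vOLCs. Picalm, named here after its OPC values were seen, was lower by more than 1.5-fold against both as well (-0.86, -1.40 to -0.36, and -0.61, -1.42 to 0.25), from 159, 20 and 40 UMIs, but the second interval held 0.

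By CPM, the leading genes of the list in MOL5/6 were Slc48a1, a heme transporter (1291, 1380 and 1452 CPM in control dOLCs, control vOLCs and ectopic vOLCs), Cpox, an enzyme of heme synthesis (247, 234 and 299), and Cisd1, an iron-sulfur protein of the outer mitochondrial membrane (232, 227 and 272). In OPCs they were Lrp1, an endocytic receptor that also takes up heme bound to hemopexin (766, 1168 and 682 CPM), Slc48a1 (386, 246 and 270) and Snx3, a sorting nexin of transferrin receptor recycling (237, 149 and 294). These lists order CPM without length and serve only to name what was counted most.

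Genes whose pattern was most like that of each member were sought among 8656 genes, by Pearson's r of log2(CPM + 10) over 26 pairs of cluster and library with at least 30 cells, which share libraries and depth. For Trf these were Stmn4 (r = 0.98), Arsg, Gjb1, Apod and Aplp1 (lowest 0.97). For Fth1 they were Ppp1r14a (0.97), Efhd1, Stmn1, Pla2g16 and Plekhb1 (lowest 0.96). Ppp1r14a is also the mature gene that stood highest in the OPCs of both controls relative to MOL5/6. For Ftl1 they were Syf2 (0.94), Deb1, Serf2, Gabarap and Rps6 (0.91), and for Tfrc Dpy19l1 (0.93), Slc6a9, Endod1, Plxdc2 and Itgb4 (0.89).

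For the sparse members the likeness was weaker. Fbn2 (0.84), Gm42418, Osbpl11, Mta1 and Fbxl17 (0.79) came nearest to Ireb2, while genes near to Aco1 included Kpna1 (0.84), Svil, Glb1 and Eml4 (0.83). For Slc11a2 they were Fam135a (0.70), Ankrd54, Phf12, Syvn1 and Slc25a36 (0.67), of which all but Syvn1 had a negative r when the libraries were pooled by cluster, so that none of the 4 can be called alike. Among the members, Trf went with Tfrc (0.83) and Fth1 (0.73), and ran against Aco1 (-0.66) and Ireb2 (-0.56). With the libraries pooled by cluster the r with Tfrc was 0.85, with Fth1 0.82 and with Aco1 -0.47, while that with Ireb2 was only -0.14. Slc40a1 had too few UMIs for this.

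Some counts are less certain than their intervals. On GRCm38, Trf (chr9:103204001-103230444, - strand) overlaps Gm20425 on the same strand, which had 0 UMIs. Slc11a2 (chr15:100387898-100425072, - strand) overlaps Gm5475 on the other strand, with 19 UMIs. Ftl1 (chr7:45457944-45459884, - strand) overlaps Gm10252 and Gm22133, which are not rows of the count table. Of the ferritin genes' copies, 5 pseudogene-like entries of the annotation are not rows of the count table, and the 6 Fthl17 rows had 0 UMIs.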

How the data were processed

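Count data of 3 libraries of sorted OLCs (10x 3′, P90) were analysed; the 4 P0 samples of a nucleus experiment in the same series of 7 samples have no group in the labels and were not analysed here. The authors deposited raw UMI counts per gene and cell, which are whole numbers without normalization, and an annotation of the cells they kept, with cluster, library and, as a percent of the UMIs of a cell, mitochondrial counts, as deposited by the authors. The labels name Cell Ranger 2.1.1, Seurat 3 and Seurat 4.0 and the build mm10, while the methods text names another Cell Ranger version. Labels place the tissue in motor and cingulate cortex and the methods in neocortex and, for dissociation, corpus callosum. Red blood cell removal was left out, and 1 further cohort was discarded by the authors for batch effects.

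For each library and cell type, the UMIs of its cells were added up and scaled to 1000000 (CPM). MOL5/6 joins MOL5/6a to MOL5/6d, and OPCs leave out cycling OPCs. Levels carry exact Poisson intervals, ratios conditional exact binomial intervals and shares Clopper-Pearson intervals, all at 95% and for counting error only. Calls needed a 1.5-fold difference, 50 UMIs and a UMI in 10% of cells. With 1 library per group, no test or standard error is given, and counts of genes past 1.5-fold describe these libraries only. Kept cells held 1257 to 12180 UMIs, and libraries 23078181 (control dOLCs), 4846391 (control vOLCs) and 14293675 (ectopic vOLCs). Doublets were not removed: Scrublet called 44 of 9291 cells, few against the expected rate of 6% it was given, and leaving out the 558 with the highest scores was an alternative. The doublet rate of these libraries was not measured.

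Alternatives were TMM factors (edgeR), median of ratios factors (DESeq2), the mean over cells, cells thinned to 1000 UMIs, a mitochondrial limit of 10%, no filter, subclusters weighted alike, OPCs without barcodes over 1% mature RNA and, added after seeing the data, no shared barcodes. The 8 members, the lists, the genes named (all members; of the iron list, those past 1.5-fold the same way against both controls with intervals on 1 side of 0 and the 3 of highest CPM; the 5 most alike genes per member with at least 300 UMIs) and the tests were chosen with earlier results of these data known. The single values of 1 gene of the mature list and of 1 gene most like a member are not reported here. The steps were tested on simulated data. Tools were Python 3.11.15, numpy 2.4.6, scipy 1.17.1, pandas 2.3.3, scanpy 1.11.5, matplotlib 3.10.9, R 4.3.3, edgeR 4.0.16 and DESeq2 1.42.0.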

Additional observations from a re-analysis of the deposited data

Results flagged for a closer look

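Summed over MOL5/6, Trf and Fth1 each had the opposite direction to that in OPCs in 2 of their 3 comparisons between libraries. The difference between the cell types was not tested, since each group has 1 library. The log2 ratio of Trf between ectopic vOLCs and control dOLCs was 0.24 in MOL5/6 and -1.51 in OPCs, and between control vOLCs and control dOLCs it was 0.25 and -0.77. For Fth1 the ratio of ectopic vOLCs was 0.017 in MOL5/6 and -0.83 in OPCs against control dOLCs, and 0.11 and -0.31 against control vOLCs. In the remaining comparisons the directions were not opposite: Fth1 between control vOLCs and control dOLCs was -0.097 in MOL5/6 and -0.52 in OPCs, and Trf of ectopic vOLCs relative to control vOLCs was -0.0093, with an interval that held 0, and -0.74. Within MOL5/6 subclusters this opposition was not kept throughout: Fth1 of ectopic vOLCs relative to control dOLCs was -0.27, -0.30, -0.063 and -0.046 in a to d, the direction seen in OPCs, and with subclusters weighted alike it was -0.14, and -0.21 relative to control vOLCs. Trf of control vOLCs relative to control dOLCs was -0.13 in a, 0.10 in b, -0.018 in c and -0.13 in d. Where the sums were not opposite, some subclusters were. Fth1 of control vOLCs relative to control dOLCs was 0.23 in a, 0.14 in b, -0.042 in c and 0.031 in d (-0.0072 to 0.068). Trf of ectopic vOLCs relative to control vOLCs was 0.30 in a, -0.042 in b, -0.040 in c and 0.16 in d. Relative to control dOLCs, the mature genes in OPC barcodes were lower as well, as given in the report. Between ectopic vOLCs and control vOLCs they did not move with Trf and Fth1. The mature list made up 0.507% of the OPC UMIs in control vOLCs and 0.493% in ectopic vOLCs. Without barcodes over 1% mature RNA, the Trf ratio between the controls in OPCs was 0.077.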

How the results depend on the processing

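No paired analysis was possible because each group has 1 library. Of 78 alternatives for the main counts and shares, 58 stayed within the limits set (1.5 times for counts, the counting interval for shares) and 20 moved. With no filter, the members past 1.5-fold were 1 in both MOL5/6 comparisons with ectopic vOLCs (Ireb2), and in OPCs 4 of ectopic vOLCs to control dOLCs (Trf, Fth1, Tfrc and Ireb2), 3 to control vOLCs (Trf, Ireb2 and Slc40a1) and 2 between the controls (Trf and Slc40a1), with Slc40a1 at 2 to 6 UMIs per library. In OPCs between the controls the count was 2 with TMM or median of ratios factors (Trf and Fth1), 0 as mean over cells or thinned, and 2 without shared barcodes (Trf and Slc11a2). It was 1 without the highest Scrublet scores or without barcodes over 1% mature RNA, but then the gene was Slc11a2, and in the latter the Trf ratio reversed to 0.077. Thinned, ectopic vOLCs to control vOLCs in OPCs gave 2 (Trf and Ftl1). Trf in control dOLC OPCs relative to MOL5/6 was 13.3% as mean over cells, 13.1% thinned, 10.0% without the highest Scrublet scores and 9.26% without barcodes over 1%. The Fth1 share in MOL5/6 was 92.4%, 92.1% and 92.1% thinned (control dOLCs, control vOLCs, ectopic vOLCs), and 92.8% and 92.6% at the 10% mitochondrial limit in control dOLCs and ectopic vOLCs. Of the alternatives for single ratios, 285 stayed in the counting interval, 70 left it and 1 reversed a ratio past 1.5-fold. The sign also changed in 33 of those that stayed or left, all short of 1.5-fold or of the filter, such as Fth1, Ftl1, Tfrc and Aco1 in MOL5/6 with subclusters weighted alike. The ratios of Tfrc and Aco1 in MOL5/6 against control dOLCs changed sign when thinned (0.070 and 0.036). Where no value shows it, the cause was not tested. Depth limits Slc40a1, Tfrc in OPCs and clusters of few cells.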
